A study of Rattus norvegicus with 15 samples.

Results

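Collagen genes were read in rat synovial tissue, the lining of the joint, in 3 groups of 5 libraries. The family was taken as all symbols of the deposited table made of Col, a number, a and a number, except Col2a1, the collagen of cartilage, which was not analysed here. This gave 43 of 23342 symbols, and 39 of the 43 had enough counts to be tested. By class they were 10 fibrillar chains, 6 basement membrane chains of type IV, 9 chains of fibril-associated collagens (FACIT), 8 beaded filament chains with their relatives, 3 network-forming chains and 4 transmembrane chains. The remaining members were 2 multiplexins and the anchoring fibril chain Col7a1. All rats are labelled wild type, and strain, sex, age and the day of sampling are not given in the labels. Control rats were untreated. AIA rats had adjuvant-induced arthritis, after 100 uL of Complete Freund's Adjuvant had been given into the tail skin. Antibody rats were AIA rats that also received the Anti-cANGPTL4 antibody into the peritoneum 2 times per week, and no vehicle or isotype control is labelled. ANGPTL4 is a secreted inhibitor of lipoprotein lipase. The 3 comparisons ask how collagen transcripts differed between arthritic and untreated synovium, between AIA rats with and without the antibody, and between antibody rats and untreated rats.

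Collagens are trimers of chains with long glycine repeats. Fibrillar chains (types I, III, V, XI) form the tensile fibrils of the joint capsule and sublining, FACIT collagens sit on the surface of those fibrils, and type IV chains form the sheet under endothelium and around fat and muscle cells. Type VI forms beaded microfibrils around cells, and the multiplexins XV and XVIII are proteoglycan-like collagens of vessel and other basement membranes, type XVIII being the source of the fragment endostatin.

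Several members are neighbours in the genome. In RefSeq's rat assembly GRCr8, Col4a1 and Col4a2 lie head to head, as do Col4a3 and Col4a4, and the neighbours Col6a1 and Col6a2, Col3a1 and Col5a2, Col9a1 and Col19a1, and Col6a6, Col6a5 and Col6a4 also lie next to each other. RefSeq start windows of 300 bases (250 before to 50 after the start) were at hand for 35 of the 43 members. Col4a5 (plus strand, chrX:109907109-109907408) and Col4a6 (minus strand, chrX:109905895-109906194) also start head to head, but their windows do not overlap. The 3 windows below are shown for the type I chain that had one and for the head-to-head pairs with overlapping windows. Of those pairs, Col4a1 and Col4a2 rose in AIA and Col4a3 fell. For Col1a2 (chr4:33518307-33518606, plus strand) capitals mark CCAAT and TATAA on either strand, so that ATTGG is CCAAT read from the other strand.
Col1a2: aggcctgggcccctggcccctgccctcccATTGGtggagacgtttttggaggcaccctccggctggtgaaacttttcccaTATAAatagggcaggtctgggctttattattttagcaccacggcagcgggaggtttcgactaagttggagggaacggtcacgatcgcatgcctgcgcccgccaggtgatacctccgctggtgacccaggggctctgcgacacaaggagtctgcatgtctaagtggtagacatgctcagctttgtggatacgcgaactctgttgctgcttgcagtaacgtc
For Col4a1 (chr16:84885347-84885646, plus strand) capitals mark the 176 bases, chr16:84885471-84885646, that its window shares with that of Col4a2 on the minus strand.
Col4a1: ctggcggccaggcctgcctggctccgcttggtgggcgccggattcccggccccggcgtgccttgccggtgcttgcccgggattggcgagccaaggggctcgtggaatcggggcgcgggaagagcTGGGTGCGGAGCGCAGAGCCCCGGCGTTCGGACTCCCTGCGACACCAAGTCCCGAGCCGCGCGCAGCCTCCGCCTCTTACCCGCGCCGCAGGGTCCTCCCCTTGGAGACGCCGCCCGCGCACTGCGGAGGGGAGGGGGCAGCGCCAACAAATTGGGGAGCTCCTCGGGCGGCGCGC
For Col4a3 (chr9:91323740-91324039, plus strand) capitals mark the 88 bases, chr9:91323740-91323827, that its window shares with that of Col4a4 on the minus strand.
Col4a3: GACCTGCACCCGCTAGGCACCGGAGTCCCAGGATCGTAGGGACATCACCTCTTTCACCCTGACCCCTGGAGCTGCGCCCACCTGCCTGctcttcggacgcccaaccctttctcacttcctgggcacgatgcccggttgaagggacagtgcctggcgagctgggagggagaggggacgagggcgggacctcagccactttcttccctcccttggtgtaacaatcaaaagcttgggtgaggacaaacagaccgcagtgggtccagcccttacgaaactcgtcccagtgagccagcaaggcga
CCAAT stood on either strand in 11 of the 35 member windows (31.4%), against 37.5% of 33469 windows of that length. TATAA stood in 7 of 35 (20%) against 26.2%, and GGGCGG in 19 of 35 (54.3%) against 33.1%. These letter matches are descriptions and not binding sites. The median GC content was 59.7% in member windows and 51.7% in all windows.

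Libraries held 31172215 to 34084345 counts. Prg4, the lubricin of lining cells, was at 1304 to 2396 FPKM (counts scaled by gene length and library total) in control, and lower in every AIA (576 to 1195) and antibody library (711 to 1211). Of 8 lining fibroblast markers, none at 0 in any library, 6 were lower than control in AIA and 6 under the antibody, with summed FPKM of 2386 to 3720, 855 to 1872 and 1121 to 1729 in the 3 groups. Of 7 T and NK cell markers, 5 rose in AIA against control. The part of these cells in the collagen results was not tested. In a principal component analysis of the 39 members, the first component held 62.4% of the variance and set AIA replicates 18, 19 and 23 (5.10 to 8.96) apart from AIA replicates 5 and 13 (-0.89 and -1.62) and from all control and antibody libraries (up to 0.74). Control replicate 2 and AIA replicate 19 held skeletal muscle transcripts, with summed FPKM of 15 muscle markers of 4882 and 8832 against 17.1 to 48.4 in the other libraries. Myh1, Myh2, Myh4, Myh7 and Ttn of that list were at 0 in some library. The same 3 AIA libraries that stood apart held more transcripts of tendon and ligament markers (summed FPKM of 8 genes 306, 129 and 177 against 40.9 to 97.9 elsewhere) and less of adipocyte markers (summed FPKM of 9 genes 4526 to 6317 against 7769 to 15510 elsewhere). Mkx, Kera and Ptx4 of the tendon list were at 0 in some library, and none of the adipocyte list was. Counts below are therefore also given without single libraries. In bulk tissue, fewer cells of a type and less RNA per cell cannot be told apart.

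Col3a1, Col1a1 and Col1a2, the chains of the main fibrils, were the most abundant members per length in control synovium, at 759 ± 368, 442 ± 227 and 364 ± 203 FPKM (SD, n = 5). They were followed by Col4a1 (246 ± 47.8), Col4a2 (178 ± 33.8), Col6a1 (138 ± 33.4), Col6a2 (113 ± 23.3) and the FACIT chain Col14a1 (73.3 ± 38.6). The ranges of the first 3 overlapped between rats, but within each of the 15 libraries Col3a1 stood above Col1a1 (ratio 1.24 to 2.02) and Col1a1 above Col1a2 (ratio 1.10 to 1.38). The type XI chains, the minor type IV chains Col4a3 to Col4a6 and the type IX chains stayed at 2.83 FPKM or less in every control library.

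All members together took 1.14%, 1.52%, 0.961%, 1.48% and 2.12% of counts in control replicates 2, 7, 11, 14 and 17. In AIA the share was 1.52% and 1.58% in replicates 5 and 13 and 5.21%, 4.02% and 3.93% in replicates 18, 19 and 23. In antibody replicates 3, 9, 10, 12 and 21_8 it was 1.25%, 1.23%, 1.42%, 1.41% and 1.11%. The 3 high AIA libraries lay above all others, and the other AIA libraries lay within the control range. The fibrillar class made most of that rise, with 2.97% to 3.99% of counts in the 3 high AIA libraries and 0.464% to 1.52% in the other 12 libraries. The basement membrane class behaved otherwise. It took 0.211% to 0.354% of counts in control, and AIA libraries, at 0.376% to 0.457%, were all above that range. In antibody rats it was 0.344% to 0.463%.

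**Figure D1:**
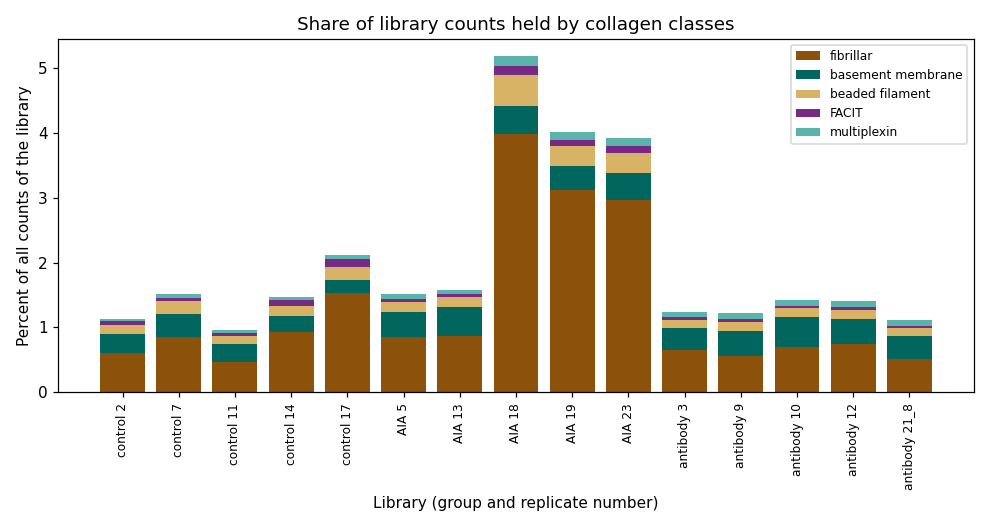
Percent of all counts of a library (vertical axis) held by the 5 largest collagen classes, stacked, for each of the 15 libraries (horizontal axis, group and replicate). AIA replicates 18, 19 and 23 reach 3.93% to 5.21% for all members, while the other 12 libraries stay at 0.961% to 2.12%.

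In AIA against control, 14 of 39 tested members rose and 2 fell at an adjusted p under 0.05 (edgeR's quasi-likelihood test with Benjamini-Hochberg adjustment over 16046 genes), against 5.09% and 3.45% of all tested genes. The median log2 fold change was 0.69 over the members and 0.00 over all tested genes. In 7 members the groups did not overlap in log2 CPM (counts scaled by library total), against 6.42% of all tested genes. The members without overlap were Col5a3, Col4a1, Col4a2 and Col18a1 above control and Col4a3, Col9a1 and Col23a1 below it. In FPKM Col4a2 did overlap, at 223 in AIA replicate 19 and 227 in control replicate 7. The count of higher members was 5 when AIA replicate 18 or 23 or control replicate 11 was left out, 6 without AIA replicate 19, control replicate 2 or control replicate 14, and 9 without control replicate 7 or antibody replicate 9. Of all tested genes, 3.23% to 3.59% rose in the fits with 5 or 6, and 4.17% and 4.62% in those with 9. With only AIA and control in the fit the count of higher members was 5 (Col5a3, Col4a1, Col12a1, Col15a1, Col18a1), against 3.4% of all genes. Without both muscle-bearing libraries it was 6, those 5 and Col24a1, and 1 member fell (Col23a1), against 2.07% and 1.48% of all genes.

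**Figure D2:**
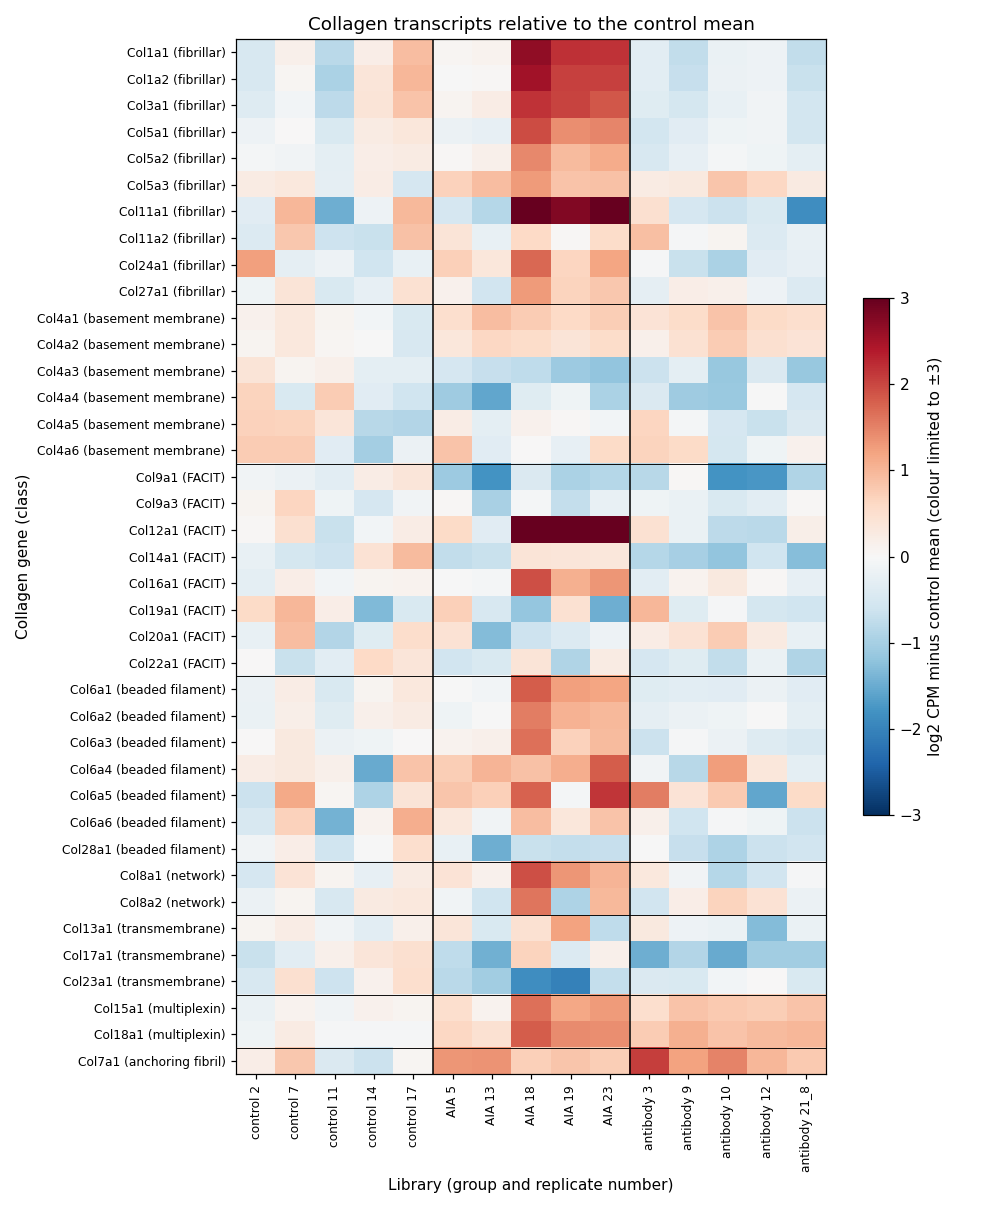
Log2 CPM (counts scaled by library total) minus the control mean (colour, limited to ±3) for the 39 tested members (rows, by class) in the 15 libraries (columns). Rows such as Col1a1, Col3a1, Col5a2, Col6a1, Col6a2 and Col6a3 are red in AIA replicates 18, 19 and 23. The Col28a1 row is blue there, but also in AIA replicate 13 and in antibody replicates 9, 10, 12 and 21_8. The rows of Col4a1, Col15a1 and Col18a1 are red in AIA and antibody libraries alike.

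Of 10 fibrillar chains, 5 rose in AIA, none fell (0 at an unadjusted p under 0.05, and 0 by DESeq2 and by limma-voom with sample weights) and all 10 had a positive log2 fold change. Col1a1, the first chain of type I collagen, stood at 283, 466, 224, 429 and 806 FPKM in control replicates 2, 7, 11, 14 and 17, at 424, 410, 2473, 1766 and 1736 in AIA replicates 5, 13, 18, 19 and 23, and at 327, 242, 339, 358 and 228 in antibody replicates 3, 9, 10, 12 and 21_8. AIA replicates 18, 19 and 23 were above all controls, and AIA replicates 5 and 13 lay among them. The log2 fold change was 1.68 ± 0.46 (SE, n = 5 and 5, adjusted p = 0.0326, edgeR), and the call was lost in 7 of 15 fits that left out 1 library.

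Col3a1, the homotrimer of reticular fibrils, showed the same libraries high, with 519, 688, 394, 856 and 1339 FPKM in control and 746, 780, 3058, 2753 and 2449 in AIA. Its log2 fold change was 1.41 ± 0.39 (adjusted p = 0.0353, edgeR, lost in 7 of 15 fits), and Col5a2, a type V chain that helps to set fibril diameter, rose by 0.83 ± 0.22 (adjusted p = 0.0309, edgeR, lost in 6 of 15 fits). Again AIA replicates 5 and 13 were within the control range in both genes. Col11a1, a chain of thin cartilage and fetal fibrils, stood at 0.0450 to 0.299 FPKM in control, at 0.0983 and 0.0714 in AIA replicates 5 and 13, and at 4.26, 0.974 and 3.69 in AIA replicates 18, 19 and 23. It rose by 3.45 ± 0.93 on the log2 scale (adjusted p = 0.0305, edgeR). This call was lost in 5 of 15 fits and was not made by limma-voom, and its level stayed low beside the other fibrillar members that rose. Col1a2 and Col5a1 had log2 fold changes of 1.52 ± 0.46 and 1.11 ± 0.34 and did not pass (adjusted p = 0.0510 and 0.0574, edgeR), while DESeq2 and limma-voom called both.

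Col5a3, the third chain of type V, differed in its pattern among libraries. It stood at 39.9, 44.2, 27.7, 37.6 and 25.8 FPKM in control, at 56.4, 62.4, 81.1, 60.0 and 61.6 in AIA replicates 5, 13, 18, 19 and 23, and at 41.7, 42.7, 59.1, 51.8 and 39.3 in antibody rats. Every AIA library was above every control, AIA replicates 5 and 13 included. The log2 fold change was 0.90 ± 0.17 (adjusted p = 0.00429, edgeR), and no left-out library ended the call. Col24a1, Col27a1 and Col11a2 did not pass, with log2 fold changes of 0.89 ± 0.38, 0.54 ± 0.27 and 0.13 ± 0.35.

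Of 6 type IV chains, 2 rose, 1 fell and 3 did not pass. Col4a1, a chain of nearly all basement membranes, stood at 259, 315, 250, 216 and 189 FPKM in control, 352, 443, 405, 356 and 388 in AIA, and 328, 363, 426, 355 and 325 in antibody rats, in replicate order. Every AIA and every antibody library lay above the highest control. Col4a1 rose by 0.69 ± 0.14 (log2, adjusted p = 0.00677, edgeR) in AIA, in all 15 fits that left out 1 library, and its partner Col4a2, which shares the printed window, rose by 0.47 ± 0.14 (adjusted p = 0.0452, edgeR, lost in 11 of 15 fits).

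Col4a3, a chain of the specialised basement membranes of kidney and lung, fell. It stood at 2.83, 2.43, 2.38, 1.68 and 1.91 FPKM in control and at 1.58, 1.30, 1.27, 1.0 and 0.934 in AIA, without overlap, and fell by 0.86 ± 0.19 on the log2 scale (adjusted p = 0.0122, edgeR, kept in all 15 fits). Its head-to-head partner Col4a4 had a log2 fold change of -0.89 ± 0.37 and did not pass (adjusted p = 0.172, edgeR). Col4a5 and Col4a6 had -0.15 ± 0.32 and 0.10 ± 0.40 and did not pass either. The summed FPKM of 11 endothelial markers, none at 0 in any library, was 844 to 1121 in control. It was 1156 to 1399 for AIA rats and 1249 to 1745 for antibody rats, so both arthritic groups lay above control. Much of that sum was Plvap, of fenestrated endothelium, at 220 to 296 FPKM in control, against 402 to 537 for AIA and 437 to 662 for antibody rats. Without Plvap, a sum taken after its values were seen, the groups overlapped (control 616 to 825, AIA 754 to 884, antibody 796 to 1083). The endothelial claudin Cldn5 reached lower in AIA (53.4 to 68.8 FPKM) than in control (65.1 to 112), with overlap. Pecam1 went the other way. Its antibody libraries (188.2 to 255.5 FPKM) all lay above the controls (118.6 to 164.1), and its AIA libraries (162.6 to 223.3) just overlapped them. Of the 11, 3 rose in AIA against control and 4 in antibody against control, and none fell in either. The part of endothelial RNA in the type IV and multiplexin results was not tested. The summed level of 9 mural cell markers overlapped between all groups (control 922 to 1768, AIA 1157 to 1353, antibody 1113 to 1944).

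Of 8 tested FACIT chains, Col12a1 and Col16a1 rose. Col12a1, a long fibril-surface collagen of tendon and fascia, stood at 1.29, 1.88, 0.785, 1.14 and 1.60 FPKM in control, at 1.94 and 0.973 in AIA replicates 5 and 13, and at 29.0, 10.2 and 14.6 in AIA replicates 18, 19 and 23. All but AIA replicate 13 were above every control, replicate 5 only just. The log2 fold change was 3.13 ± 0.68 (adjusted p = 0.0102, edgeR) and was called in all 15 fits. Col16a1, a FACIT chain found near basement membranes and on fibrils, rose by 1.04 ± 0.30 (adjusted p = 0.0422, edgeR) and lost the call in 11 of 15 fits. Col14a1, a FACIT chain that binds decorin, did not pass at -0.10 ± 0.30. Col9a1, a cartilage FACIT chain, was at 0.313 to 0.549 FPKM in control and 0.10 to 0.289 in AIA, without overlap, but its log2 fold change of -1.04 ± 0.36 did not pass (adjusted p = 0.0924, edgeR), although DESeq2 called it lower. Col9a3, Col19a1, Col20a1 and Col22a1 had log2 fold changes of -0.45 to -0.25 and did not pass.

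Of 7 tested beaded filament chains, Col6a1 and Col6a3 rose, by 0.99 ± 0.29 and 0.82 ± 0.24 (log2, adjusted p = 0.0467 and 0.0459, edgeR). Col6a1, a core chain of type VI, stood at 117, 163, 96.5, 134 and 179 FPKM in control and at 136, 122, 466, 306 and 298 in AIA replicates 5, 13, 18, 19 and 23. The same 3 AIA libraries were high, and each of the calls on Col6a1 and Col6a3 was lost in 13 of 15 fits. The third core chain, Col6a2, had 0.80 ± 0.26 (adjusted p = 0.0651, edgeR). Col6a4, Col6a5 and Col6a6, the chains that can replace Col6a3 in the trimer, had 1.13 ± 0.50, 1.14 ± 0.55 and 0.27 ± 0.35, and Col28a1, best known from peripheral nerve, had -0.74 ± 0.23 (adjusted p = 0.0533, edgeR). None of these 5 passed in edgeR, while DESeq2 and limma-voom called Col6a2 higher and Col28a1 lower.

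Among the smaller classes, Col8a1, a network chain of vessel wall and Descemet's membrane, rose by 1.07 ± 0.31 (log2, adjusted p = 0.0428, edgeR, lost in 9 of 15 fits), and Col8a2 did not pass at 0.48 ± 0.40. Col23a1, a transmembrane collagen, stood at 1.23, 2.54, 1.11, 1.79 and 2.64 FPKM in control, at 1.01, 0.808, 0.463, 0.410 and 1.03 in AIA, and at 1.31, 1.29, 1.59, 1.75 and 1.22 in antibody rats. All AIA libraries were below all controls and all antibody libraries. Col23a1 fell by 1.28 ± 0.28 (log2, adjusted p = 0.0104, edgeR) in all 15 fits. The transmembrane chains Col13a1 and Col17a1, the latter a hemidesmosome protein, did not pass at 0.32 ± 0.34 and -0.25 ± 0.32.

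Both multiplexins rose. Col18a1 stood at 40.2, 55.1, 42.9, 41.3 and 46.5 FPKM in control, at 71.0, 58.9, 156, 116 and 114 in AIA replicates 5, 13, 18, 19 and 23, and at 77.3, 96.2, 78.8, 85.5 and 85.8 in antibody rats. Every library of the AIA and antibody groups was above every control. Its log2 fold change in AIA was 1.23 ± 0.20 (adjusted p = 0.00226, edgeR). Col15a1 rose by 1.03 ± 0.21 (adjusted p = 0.0079, edgeR), with 4 of 5 AIA libraries above all controls, and both calls were kept in all 15 fits. Its AIA levels were 79.4, 57.2, 169, 119 and 130 FPKM in replicates 5, 13, 18, 19 and 23. Both multiplexins were thus highest in AIA replicates 18, 19 and 23, the libraries that were high in Col1a1. Col7a1, which anchors epithelial basement membrane to fibrils, had 0.94 ± 0.28 and did not pass (adjusted p = 0.0504, edgeR), although DESeq2 called it.

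**Figure D3:**
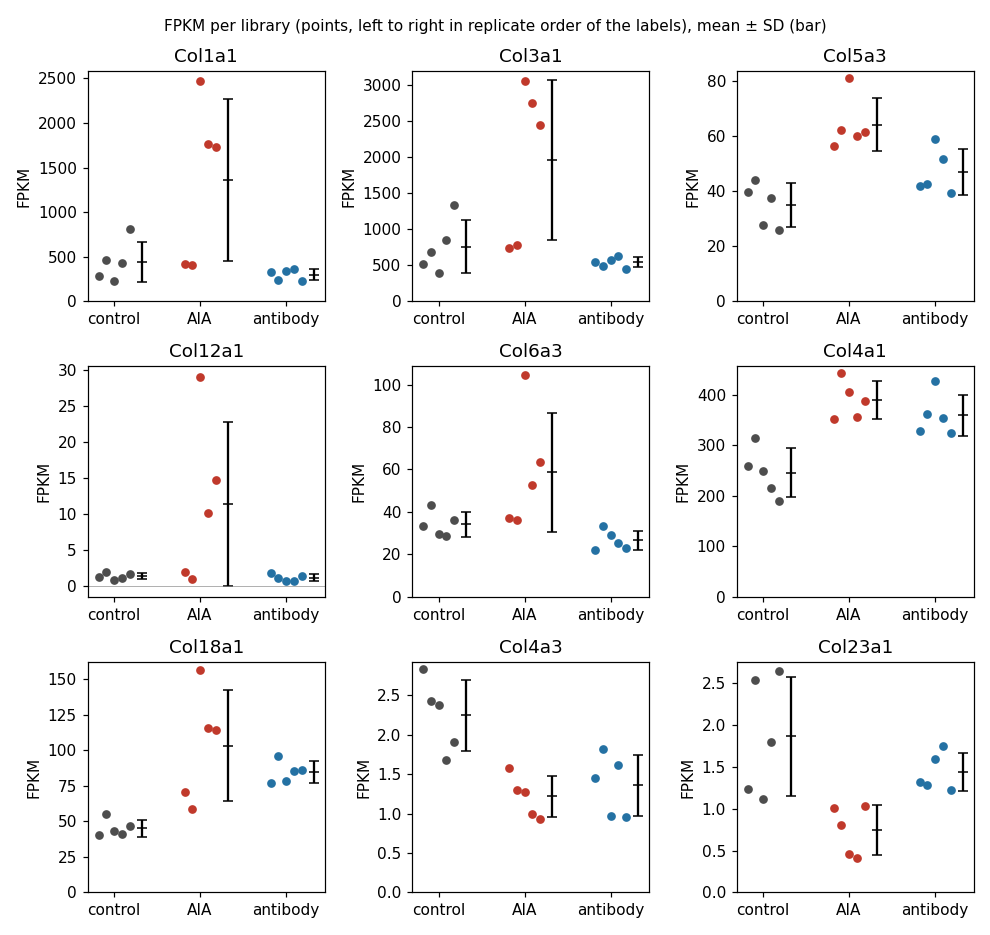
FPKM of 9 members (vertical axes) in each library (points, by group on the horizontal axis, in the replicate order of the labels), with the group mean ± SD (n = 5, bar). Col1a1, Col3a1, Col12a1 and Col6a3 have 3 AIA libraries high, while every AIA point of Col5a3, Col4a1 and Col18a1 lies above the controls and every AIA point of Col4a3 and Col23a1 below them. Col18a1 is also highest in AIA replicates 18, 19 and 23.

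In antibody against AIA, 12 of 39 members were lower, against 3.99% of all tested genes, and none was higher, against 1.83%. For higher members, 1 had an unadjusted p under 0.05 in edgeR, and DESeq2 and limma-voom called 1 each (Col23a1). In 8 members the groups did not overlap, against 3.81% of all tested genes. The median log2 fold change was -0.56 over the members and 0.00 over all tested genes. This count depended on which libraries entered the fit. When only AIA and antibody libraries entered the fit, 0 members were called lower, and 77 of 15663 genes were (0.492%). The count was 2 without antibody replicate 10 (0.858% of all genes lower there) and 3 without AIA replicate 18 (1.08%) or antibody replicate 21_8 (1.22%). It was 4 without AIA replicate 23 (1.07%), and 6 without AIA replicate 19 (1.37%) or antibody replicate 9 (2.21%). Without both muscle-bearing libraries it was 3 (1.08% of all genes lower there). This comparison shares the AIA libraries with the first, so opposite signs are favoured and each comparison's values are given side by side.

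The lower members were 7 of 10 fibrillar chains, 3 of 7 beaded filament chains, Col12a1 and Col8a1. Col1a1 had a log2 fold change of -2.21 ± 0.47 (adjusted p = 0.0197, edgeR), after 1.68 in AIA against control. All 5 antibody libraries, at 228 to 358 FPKM, lay below the lowest AIA library at 410. Col1a2 had -2.06 ± 0.47 (adjusted p = 0.0238, edgeR), with 264, 202, 278, 289 and 194 FPKM in antibody replicates 3, 9, 10, 12 and 21_8 against 318 to 1803 in AIA. Col3a1 had -1.87 ± 0.40 (adjusted p = 0.0205, edgeR), with 455 to 634 FPKM under the antibody against 746 to 3058 in AIA. In these 3 genes the antibody libraries lay below AIA replicates 5 and 13 as well as below the 3 high ones.

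Among the type V chains, Col5a2 had -1.08 ± 0.22 (adjusted p = 0.0187, edgeR) and Col5a1 had -1.46 ± 0.35 (adjusted p = 0.0278, edgeR), while Col5a3 did not pass at -0.47 ± 0.17 (adjusted p = 0.107, edgeR). Col11a1 had -4.17 ± 0.97 (adjusted p = 0.0262, edgeR, not called by limma-voom), with antibody libraries at 0.0312 to 0.204 FPKM overlapping AIA replicates 5 and 13. Col24a1, a minor fibrillar chain of bone, had -1.51 ± 0.39 (adjusted p = 0.0355, edgeR) with no overlap, at 0.0531 to 0.113 FPKM against 0.141 to 0.391. Col11a2 and Col27a1 did not pass, at -0.16 ± 0.35 and -0.66 ± 0.27, although limma-voom called Col27a1 lower.

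Col12a1 had -3.32 ± 0.68 (log2, adjusted p = 0.0187, edgeR), with antibody libraries at 1.81, 1.13, 0.720, 0.721 and 1.39 FPKM. Antibody replicates 10 and 12 lay below all controls and all AIA libraries, and the other 3 lay within the control range. Col6a1, Col6a2 and Col6a3, the core chains of type VI, had -1.32 ± 0.29, -0.99 ± 0.26 and -1.16 ± 0.24 (adjusted p = 0.0222, 0.0359 and 0.0189, edgeR). For Col6a1 the antibody libraries lay at 102 to 118 FPKM and all AIA libraries at 122 or more. Col8a1 had -1.29 ± 0.31 (adjusted p = 0.0292, edgeR). Of the 12 calls, those on Col5a2 and Col6a3 were kept in all 15 fits without 1 library, that on Col12a1 was lost without antibody replicate 10, and the other 9 were lost in 3 to 8 fits. Of the tendon and ligament markers 2 of 5 tested fell in this comparison, as did 3 of 9 sublining fibroblast markers, 4 of 7 macrophage markers and 4 of 7 T and NK cell markers. Summed FPKM of the macrophage markers, none at 0, was 551 to 1012 in AIA and 366 to 717 under the antibody, and that of the T and NK markers, of which Cd3d was at 0 in some library, was 74.0 to 112 and 47.1 to 92.2. Most of the T and NK sum was Cd4 alone (AIA 66.4 to 104.5, antibody 42.6 to 88.8), so the sum mainly reads that gene. Control libraries had T and NK sums of 91.4 to 130, overlapping AIA, although 5 of 7 tested markers of that list rose in AIA against control. Summed FPKM of the sublining markers, none at 0, overlapped (AIA 833 to 1304, antibody 927 to 1239, control 732 to 1278). Tnmd, the tendon marker tenomodulin, was at 4.88, 2.64 and 6.11 FPKM in AIA replicates 18, 19 and 23 and at 0.138 to 1.62 in the other libraries. The part of tendon, fat, muscle, fibroblast and immune cell RNA in the fibrillar, FACIT and type VI results was not tested.

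No basement membrane chain was called between antibody and AIA rats by edgeR (0 of 6, with 0 at an unadjusted p under 0.05), and DESeq2 and limma-voom also called 0. Col4a1 had -0.13 ± 0.14, Col4a2 -0.02 ± 0.14 and Col4a3 0.14 ± 0.19 on the log2 scale. The multiplexins were likewise not called by the 3 tools (0 of 2, with 0 at an unadjusted p under 0.05), with Col15a1 at -0.29 ± 0.21 and Col18a1 at -0.30 ± 0.20. Col16a1 and Col14a1 had -1.05 ± 0.30 and -0.99 ± 0.31 and did not pass (adjusted p = 0.0506 and 0.068, edgeR), while DESeq2 and limma-voom called both, and they also called Col17a1 lower (-0.99 ± 0.33, adjusted p = 0.0855, edgeR). Col23a1 had 0.94 ± 0.28 (adjusted p = 0.0582, edgeR) with every antibody library above every AIA library.

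**Figure D4:**
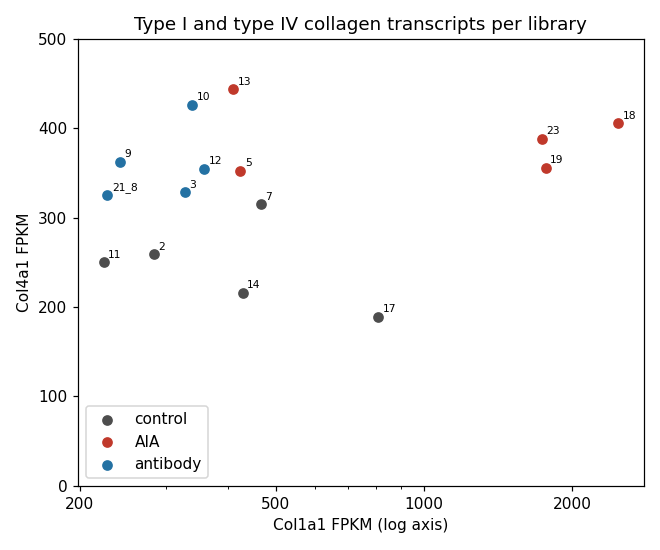
Col4a1 FPKM (vertical axis, from 0) against Col1a1 FPKM (horizontal log axis) in each of the 15 libraries, labelled by replicate. AIA replicates 18, 19 and 23 lie at 1736 to 2473 FPKM of Col1a1, whereas Col4a1 lies above the highest control (315) in every AIA and antibody library.

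In antibody against control, 4 members were higher and 3 lower, against 3.38% and 4.66% of all tested genes, and in 4 members the groups did not overlap, against 9.54%. The median log2 fold change was -0.26 over the members and 0.00 over all tested genes. These counts sit nearer to the background than those of the other comparisons. The count of higher members was 2 without antibody replicate 10 (1.86% of all genes higher) or control replicate 14 (2.03%). The count of lower members was 0 without antibody replicate 3, 10 or 21_8 (2.51% to 3.63% of all genes lower). It was 1 without control replicate 2, 11, 14 or 17 (2.88% to 3.83%). Without both muscle-bearing libraries 2 were higher (Col18a1, Col7a1) and 1 lower (Col17a1), against 1.72% and 2.98% of all genes.

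The higher members were both multiplexins, 1 of 6 basement membrane chains and the anchoring fibril chain. Col18a1 had 0.93 ± 0.20 (log2, adjusted p = 0.0121, edgeR), Col4a1 0.56 ± 0.14 (adjusted p = 0.0219, edgeR) and Col15a1 0.74 ± 0.21 (adjusted p = 0.0431, edgeR), each without overlap. Col15a1 stood at 47.4 to 61.9 FPKM in control and at 79.4 to 101 under the antibody. Col7a1 stood at 0.652, 1.05, 0.416, 0.346 and 0.643 FPKM in control, 1.49, 1.41, 0.930, 1.0 and 0.940 in AIA, and 2.51, 1.36, 1.57, 1.15 and 0.954 in antibody rats. In 4 of 5 antibody libraries it was above all controls, with a log2 fold change of 1.30 ± 0.28 (adjusted p = 0.0113, edgeR). The calls on Col18a1 and Col7a1 were kept in all 15 fits without 1 library, that on Col4a1 was lost in 2 and that on Col15a1 in 9. Col4a2 had 0.45 ± 0.14 (adjusted p = 0.0583, edgeR) and was called by DESeq2 and limma-voom.

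The lower members were Col4a3, Col14a1 and Col17a1. Col14a1 stood at 56.1, 48.3, 42.0, 83.6 and 136 FPKM in control, 40.6, 40.2, 85.2, 83.6 and 81.5 in AIA, and 37.8, 34.0, 28.2, 43.1 and 26.0 in antibody rats. In 4 of 5 antibody libraries it was below all controls, and its log2 fold change was -1.09 ± 0.31 (adjusted p = 0.0400, edgeR, lost in 7 of 15 fits). Col17a1 had -1.24 ± 0.33 (adjusted p = 0.0325, edgeR, lost in 6 of 15 fits), at 0.380 to 0.619 FPKM against 0.700 to 1.67 in control. Col4a3 had -0.71 ± 0.19 (adjusted p = 0.0329, edgeR, lost in 6 of 15 fits), beside -0.86 in AIA against control.

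No fibrillar chain was called between antibody and control rats (0 of 10 by edgeR, 1 at an unadjusted p under 0.05, and 0 by DESeq2 and by limma-voom). Col1a1 and Col3a1 had -0.53 ± 0.45 and -0.46 ± 0.39 on the log2 scale, and Col5a3 had 0.43 ± 0.17 (adjusted p = 0.129, edgeR). The beaded filament class had 0 of 7 called by edgeR and DESeq2, 1 at an unadjusted p under 0.05, and 1 by limma-voom (Col28a1). Across the 3 comparisons 23 members were called at least once and 16 in none. Of the 14 that rose in AIA, 8 fell between AIA and antibody rats, and 3 (Col4a1, Col15a1, Col18a1) were still above control. The same counts were not taken over all tested genes, and the shared AIA libraries favour a rise followed by a fall. These counts are therefore descriptions of the members only.

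**Figure D5:**
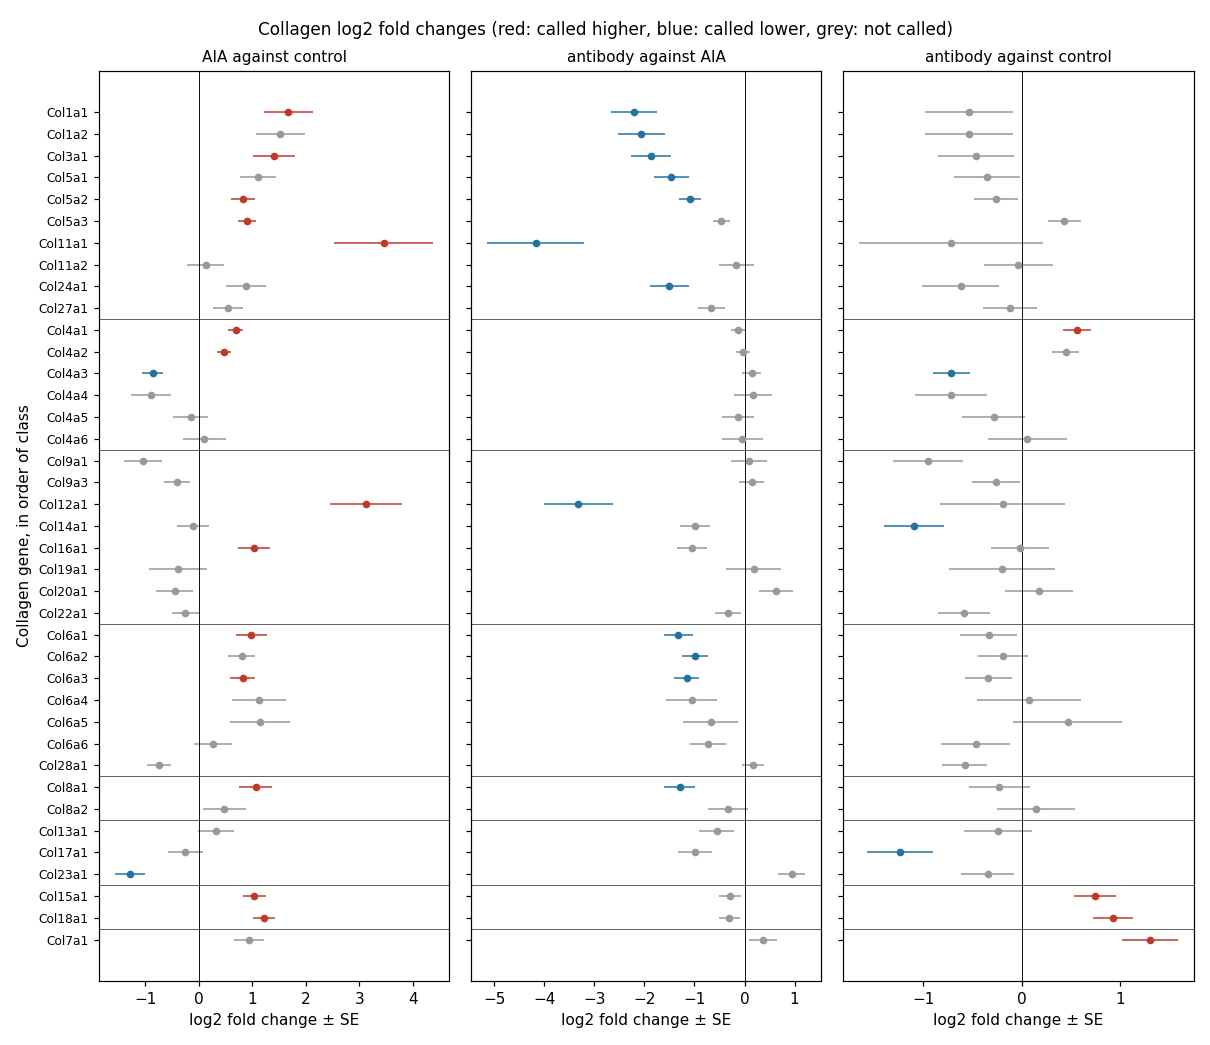
Log2 fold change ± SE (horizontal axes, edgeR) of the 39 tested members (rows, by class) in the 3 comparisons; red marks members called higher, blue those called lower, grey those not called. As reported, fibrillar and type VI rows lie right of 0 in AIA against control and left of 0 in antibody against AIA, while Col4a1, Col15a1 and Col18a1 lie right of 0 in both comparisons against control.

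Ratios between members were taken from their FPKM within each library. Over 16 ratios and 3 comparisons, 48 two-sided exact permutation tests were made, and none passed the adjustment over the 48, where 5 against 5 libraries cannot give an unadjusted p below 0.0079. At that limit (adjusted p = 0.0952, exact permutation test) lay 4 of the tests, on 3 ratios. Col4a2 over Col4a1 was 0.704 to 0.758 in control, and both AIA (0.586 to 0.646) and antibody rats (0.609 to 0.686) lay below that range. Col14a1 over Col1a1 was 0.104 to 0.198 in control and 0.0345 to 0.0979 in AIA. Col1a1 over Col1a2, the chains of 1 trimer, was 1.29 to 1.37 in AIA and 1.17 to 1.24 under the antibody. Without AIA replicate 13, 4, 3 and 1 ratios passed in AIA against control, antibody against AIA and antibody against control. No value of antibody against control changes when an AIA library is left out. The 1 ratio there passed only through the adjustment that all the ratio tests share.

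Genes that make, bind or cut collagen were read from 8 lists. Of the 98 listed genes present in the deposited table, 93 were tested. In AIA against control 10 rose and 4 fell, beside 5.09% and 3.45% of all tested genes. In antibody against AIA 2 were higher and 29 lower, beside 1.83% and 3.99%, and in antibody against control 5 were higher and 17 lower, beside 3.38% and 4.66%. The 29 became 6 when only AIA and antibody libraries entered the fit (0.492% of all genes lower there), 33 with DESeq2 (6.77%) and 41 with limma-voom (8.87%). In AIA against control the 10 became 18 with DESeq2 (6.38% of all genes higher) and 24 with limma-voom (7.39%). In antibody against control the 17 became 29 with only the groups compared (6.77% of all genes lower). Colgalt2, which puts galactose on hydroxylysine, stood at 13.3 to 16.0 FPKM in control, against 3.96 to 7.09 for AIA and 4.91 to 8.02 for antibody rats, with log2 fold changes of -1.24 ± 0.15 and -1.08 ± 0.14 against control (adjusted p = 0.000259 and 0.000587, edgeR). Both arthritic groups were below all controls. Tll1, a tolloid protease that removes procollagen C-propeptides, was at 1.34 to 1.87 FPKM in control and above that in every arthritic library (0.81 ± 0.14 in AIA and 0.96 ± 0.14 under the antibody, adjusted p = 0.00239 and 0.000851, edgeR).

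P4ha3, a prolyl hydroxylase subunit, stood at 0.164 to 3.49 FPKM in control, at 0.541 and 0.406 in AIA replicates 5 and 13, at 22.2, 8.07 and 8.81 in AIA replicates 18, 19 and 23, and at 0.188 to 0.434 under the antibody. Its high libraries were those of Col1a1, and it had a log2 fold change of -4.68 ± 1.06 in antibody against AIA (adjusted p = 0.0239, edgeR). Adamts2, which removes N-propeptides, had -1.71 ± 0.36, the chaperone Fkbp10 had -0.96 ± 0.20 and the cross-linking oxidase Loxl1 had -1.12 ± 0.18 in that comparison (adjusted p = 0.0189, 0.0173 and 0.0107, edgeR). Of 11 chaperone and export genes, 0 were called in AIA against control by edgeR (4 at an unadjusted p under 0.05). In that comparison DESeq2 called 2 higher and limma-voom 4, beside 6.38% and 7.39% of all genes. Serpinh1, the collagen chaperone HSP47, had 0.53 ± 0.18 there (adjusted p = 0.0949, edgeR).

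Of 15 tested basement membrane partners, 1 rose and 1 fell in AIA against control, beside 5.09% and 3.45% of all tested genes. In antibody against AIA 2 were higher and 1 lower (1.83% and 3.99%), and in antibody against control 3 and 0 (3.38% and 4.66%). Lamb1, a laminin chain, was higher than control in both arthritic groups (0.70 ± 0.12 and 0.68 ± 0.12, adjusted p = 0.00224 and 0.00295, edgeR). Lamb2 fell in AIA against control (-0.46 ± 0.11, adjusted p = 0.0174, edgeR), at 104 to 156 FPKM against 152 to 186. Lama2 had -1.19 ± 0.32 in antibody against AIA (adjusted p = 0.0397, edgeR). Hspg2, the proteoglycan perlecan, was higher under the antibody than in control (0.58 ± 0.10, adjusted p = 0.00379, edgeR) and than in AIA (0.37 ± 0.10, adjusted p = 0.0466, edgeR). Among receptors, Ddr2, which binds fibrillar collagen, was lower than control in both groups (-0.60 ± 0.13 and -0.77 ± 0.13, adjusted p = 0.0088 and 0.00227, edgeR), and Itga11, the integrin chain of fibroblasts for type I collagen, had -2.12 ± 0.55 in antibody against control (adjusted p = 0.0269, edgeR).

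The 4 members not tested had few counts. Col9a2 had 2 to 21 counts per library, Col25a1 0 to 13 and Col26a1 0 to 2. Col10a1, the collagen of hypertrophic cartilage, had 36 counts in AIA replicate 19 and 12 in antibody replicate 9, and at most 3 in each other library.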

How the data were processed

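Synovial RNA of 15 rats (3 groups of 5, grouped by the labels' titles) was measured by RNA-seq; per the labels' protocols 1.3 ug of total RNA went into each library. The authors deposited whole-number counts per gene symbol and FPKM values. The deposited FPKM equals count over gene length and library total, within 0.1% for 100% of 291027 values with a count, so counts were tested and FPKM used for levels. Aligner and counter: not given in the sources used here. Although the samples are rat, GRCm38 and mm10, builds of the mouse genome, appear in the submitters' processing notes, so the annotation is uncertain, reads of similar chains may be split between them, and strand use is not stated.

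Counts were analysed with edgeR 4.0.16 in R 4.3.3 (filterByExpr, TMM factors, quasi-likelihood F test, group as the only term, all 15 libraries, Benjamini-Hochberg over 16046 genes, called at an adjusted p under 0.05). Log2 CPM used a prior count of 2 and the TMM factors, and counts of members or genes without overlap were taken on it. SE comes from the F statistic. Each library is taken as 1 rat, although antibody replicate 21_8 carries a double number; p-values measure the spread between these libraries, and arthritis and antibody differ by group only, with no batch labelled. Alternatives were DESeq2 1.42.0, limma 3.58.1 (voom with sample quality weights), RLE factors, scaling without collagens, no filter, only the groups compared, leaving out each library, leaving out both muscle-bearing libraries and, for ratios, a pseudocount of 0.1. The tests were checked on simulated data. Any member could be named; of each pathway list, up to 4 called members of lowest p or, with none called, the 2 of highest level, and not every one allowed is printed. The members and lists were chosen with earlier results of these data known. Promoter windows are RefSeq's, assembly GRCr8.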

Additional observations from a re-analysis of the deposited data

Results flagged for a closer look

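In 117 groups of 5 libraries (39 members, 3 groups), 3 had 1 library far from the other 4 by Dixon's test, which flags about 1 group in 20 by chance. Col24a1 was at 1.01 log2 CPM in control replicate 2 and at -0.82 to -0.37 in the other controls, and this is one of the libraries with skeletal muscle transcripts. Col6a1 was at 8.91 log2 CPM in antibody replicate 12 and at 8.72 to 8.77 in the other antibody libraries. Col18a1 was at 8.04 log2 CPM in control replicate 7 and at 7.67 to 7.77 in the other controls.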

How the results depend on the processing

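Of the counts of members called in AIA against control, antibody against AIA and antibody against control, higher and lower members numbered 14 and 2, 0 and 12, and 4 and 3. DESeq2 gave 4 lower members in AIA against control (3.92% of all genes) and 1 higher in antibody against AIA (3.54%). Limma-voom with sample weights gave 5 lower in antibody against control (7.01%) and 1 higher in antibody against AIA (8.13%). Fits on only the groups compared gave 5 higher in AIA against control (3.4%) and 0 lower in antibody against AIA (0.492%). In antibody against control such a fit gave 4 higher and 3 lower members, with 5.17% and 6.77% of all genes. The cause of these differences was not tested. Without both muscle-bearing libraries the counts were 6 and 1, 0 and 3, and 2 and 1. The shares of all genes there were 2.07% and 1.48%, 0.285% and 1.08%, and 1.72% and 2.98%. Leaving out 1 library gave 5 to 17 higher and 2 to 3 lower, 0 to 1 higher and 2 to 16 lower, and 2 to 5 higher and 0 to 3 lower. In those fits 3.23% to 7.09% of all genes were higher and 2.27% to 4.92% lower in AIA against control. The shares were 0.296% to 4.66% and 0.858% to 7.9% in antibody against AIA. They were 1.78% to 4.17% and 2.51% to 5.4% in antibody against control. RLE factors, scaling without collagens and no filter kept every count within 1.5 times. Scaling without collagens moved the median of all genes by 0.03 (log2). No ratio passed, except without AIA replicate 13 (4, 3 and 1 in the 3 comparisons, so 0 to 4, 0 to 3 and 0 to 1 over left-out libraries). The 1 in antibody against control passed only through the adjustment shared by all the ratio tests. The collagen share of counts in antibody rats moved from 1.29% to 1.44% when mitochondrial and muscle genes were taken out of the total. No value called as reported changed sign. Of 107 member or ratio values never called under any setting, 29 changed sign in at least 1. No paired analysis was possible because the groups share no replicate numbers. Depth limits the 4 members not tested and the members under 1 FPKM.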
